A study of Mus musculus with 6 samples.

Results

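The cytochrome P450 genes were taken as all non-control probes whose gene name in the scanner files is Cyp followed by a number, a letter code and a number. The rule found 113 probes, for 80 of the 28032 genes on the array. Expression was measured in thymic epithelial cells, the stromal cells on which T cells mature, sorted as CD45- EpCAM+ from 4-week-old C57BL/6 mice carrying the Tg(Meis1-EGFP)FO156Gsat/Mmcd reporter. In this line a bacterial artificial chromosome with Meis1 regulatory sequence drives EGFP, and every group carries it. The Meis1-high gate held small cells with bright EGFP (EGFPhigh FSClow), the Meis1-low gate cells of larger size and intermediate EGFP (EGFPint FSChigh), and the Meis1-negative gate those small cells that lacked EGFP (EGFP- FSClow). Cell size and reporter level therefore changed together between Meis1-low and each of the other gates, and cannot be told apart in those comparisons. Each gate was sampled as 2 pools of 6 mice, and each pool was hybridised to 1 one-colour array, giving 6 arrays in all.

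P450 enzymes are heme proteins that insert an oxygen atom into their substrates, and they draw electrons from P450 oxidoreductase in the endoplasmic reticulum or from ferredoxin in mitochondria. The liver uses many of them to clear drugs and other foreign compounds, other members build steroid hormones, bile acids and eicosanoids, and a few are present in most tissues. Medullary thymic epithelial cells are known to transcribe genes of other organs at low level, partly under the regulator Aire, so that T cells that react to the body's own proteins can be removed. The family therefore sets genes known from the liver, the gonads and the adrenal beside members found in most cells.

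The 80 genes were divided by known role into 34 liver-type drug enzymes, 8 extrahepatic xenobiotic enzymes, 19 fatty acid and eicosanoid enzymes, 5 of steroid hormone synthesis, 6 of bile acid and cholesterol metabolism, 5 of vitamin D and retinoic acid metabolism, and 3 broadly expressed members. A level is given below as the log2 signal of a gene's brightest probe minus the array's 75th percentile, so 0 is the level of a bright gene on that array. Levels of different genes come from different probes and are not compared with each other. A difference is between the means of 2 gates on this log2 scale. A probe is called well above background where the scanner software marked it so.

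The signal at the 75th percentile spanned 73.4 to 164.9, with its lowest value on the first Meis1-high array. The share of spots well above background was lowest on the first replicates of Meis1-high (53.1%) and Meis1-negative (54.2%), and lay between 62.0% and 69.6% on the other 4. The reporter gene's own transcript, Meis1, was at 0.24 and 0.12 in the Meis1-high pools, -2.35 and -1.61 in the Meis1-low pools, and -3.20 and -0.99 in the Meis1-negative pools. The Meis1-high arrays were above all others, and the Meis1-low and Meis1-negative arrays overlapped. All 8 epithelial markers listed were well above background on all 6 arrays. The 12 thymocyte and T cell markers summed to 10.15 on Meis1-negative replicate 1, which stood apart. On the other 5 arrays they summed to between 2.75 and 4.30, on the same log2 scale. The 5 pan-leukocyte markers summed to 6.25 and 5.34 in the Meis1-negative pools, 3.37 and 2.86 in Meis1-high, and 4.90 and 4.78 in Meis1-low. Of these, Ptprc, the gene of CD45, was well above background on all 6 arrays. It was at 5.17 and 3.17 in the Meis1-negative pools and at 0.43 or below on the others. The 5 B cell markers summed to 1.60 and 2.37 in the Meis1-negative pools and to 1.33 or below elsewhere. The part of these markers in the P450 values was not tested. Nothing in the labels says that the pools of a gate were sorted on separate days, so p-values measure the spread between these pools.

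A selection of probes is printed first, each of which reads a stretch of the messenger RNA that spans a splice junction. The probes with the largest difference between Meis1-high and Meis1-low in each direction, of Cyp2d22 and Cyp2j13 (probe 1), are not shown. Positions are those of the scanner files, on mm9, and all sequences are 60 bases in the sense of the transcript. Cyp1a2, the liver's caffeine-clearing enzyme, was read by 2 probes, of which the one across a junction at chr9:57528863-57529512 (probe 2) is shown. Cyp11a1, which cleaves the side chain of cholesterol and so begins steroid synthesis, was read across junctions at chr9:57873365-57873902 (probe 2) and chr9:57874074-57874544 (probe 3). Cyp17a1, which leads steroid synthesis toward androgens, was read at chr19:46742594-46743207, and Cyp3a11, a major drug-clearing enzyme of mouse liver, at chr5:146672058-146673925. The Cyp2j13 probe at chr4:95712305-95723288 (probe 2) is shown because its capitals encode a match to the heme-binding signature that marks the family, a pattern held by 1 of the 113 P450 probes (0.885%) and by 50 of all 41174 probes (0.121%).
Cyp1a2 probe 2: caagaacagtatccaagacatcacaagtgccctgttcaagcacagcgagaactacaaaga
Cyp11a1 probe 2: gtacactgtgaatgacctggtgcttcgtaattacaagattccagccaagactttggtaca
Cyp11a1 probe 3: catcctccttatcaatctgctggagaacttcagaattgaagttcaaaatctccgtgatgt
Cyp17a1 probe: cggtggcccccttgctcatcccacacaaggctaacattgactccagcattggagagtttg
Cyp3a11 probe: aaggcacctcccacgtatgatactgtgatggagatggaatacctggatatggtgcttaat
Cyp2j13 probe 2: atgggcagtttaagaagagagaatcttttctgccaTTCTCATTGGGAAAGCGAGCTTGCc

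More P450 genes were detected on both arrays of the Meis1-low gate than of the other gates. Well above background were 32 and 38 of the 80 genes in the Meis1-high pools, 53 and 58 in the Meis1-low pools, and 26 and 55 in the Meis1-negative pools. In percent these were 40.0% and 47.5%, 66.2% and 72.5%, and 32.5% and 68.8%. Over all genes the shares on the same arrays were 53.6% and 65.1%, 62.8% and 67.9%, and 53.7% and 69.0%. The P450 share thus lay below the share of all genes on both Meis1-high arrays and above it on both Meis1-low arrays. In Meis1-negative the replicates disagreed, with replicate 1 far below the share of all genes and replicate 2 next to it.

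**Figure D1:**
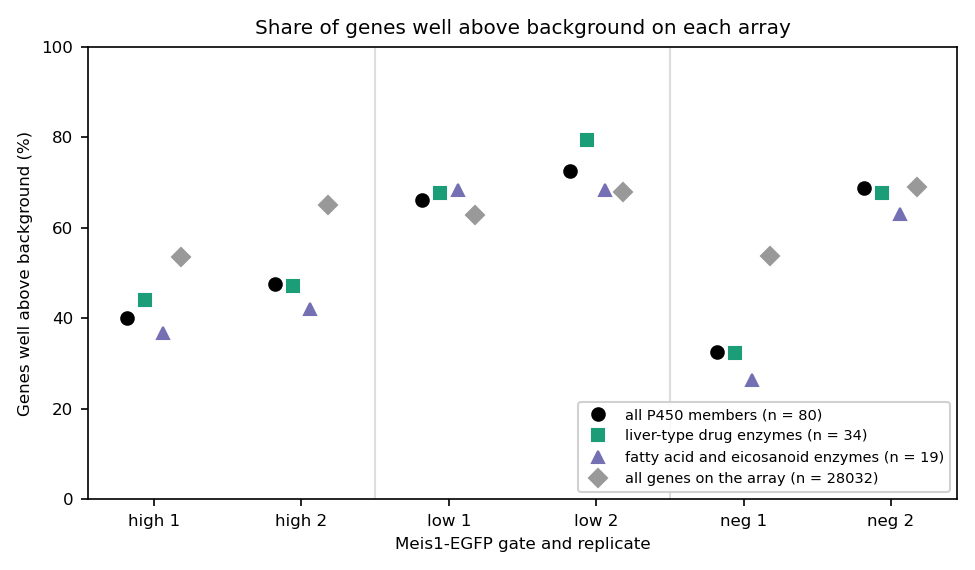
Share of genes well above background (y axis, percent) on each of the 6 arrays (x axis), for all 80 P450 genes, the 34 liver-type genes, the 19 fatty acid and eicosanoid genes and all 28032 genes. The P450 points lie below those of all genes on both Meis1-high arrays (40.0% and 47.5%) and above them on both Meis1-low arrays (66.2% and 72.5%).

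Read through each gene's brightest probe and counted on both arrays of a gate, Meis1-low had 48 P450 genes well above background, Meis1-high 29 and Meis1-negative 25. Of the 80, 22 (27.5%) passed on both Meis1-low arrays and not on both Meis1-high arrays, against 10.7% of all genes. In the opposite direction 3 did (3.75%), against 3.09% of all genes. Those 22 included 10 of the 34 liver-type genes, 6 of the 19 fatty acid genes and 2 of the 5 steroid genes. By class, detection on both arrays of the high, low and negative gates was 13, 21 and 10 for the liver-type genes, 6, 12 and 5 for the fatty acid genes, and 1, 3 and 1 for the steroid genes. It was 5, 5 and 4 for the 8 extrahepatic genes, 1, 2 and 1 for the 6 bile acid genes, 2, 3 and 3 for the vitamin D and retinoic acid genes, and 1, 2 and 1 for the 3 broadly expressed genes. More genes were thus detected in Meis1-low than in Meis1-high in each class but the extrahepatic enzymes. A total of 12 P450 genes were well above background on no array, among them the adrenal enzymes Cyp21a1 and Cyp11b2, the bile acid enzyme Cyp8b1 and Cyp2u1, which was listed here among the broadly expressed members.

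**Figure D2:**
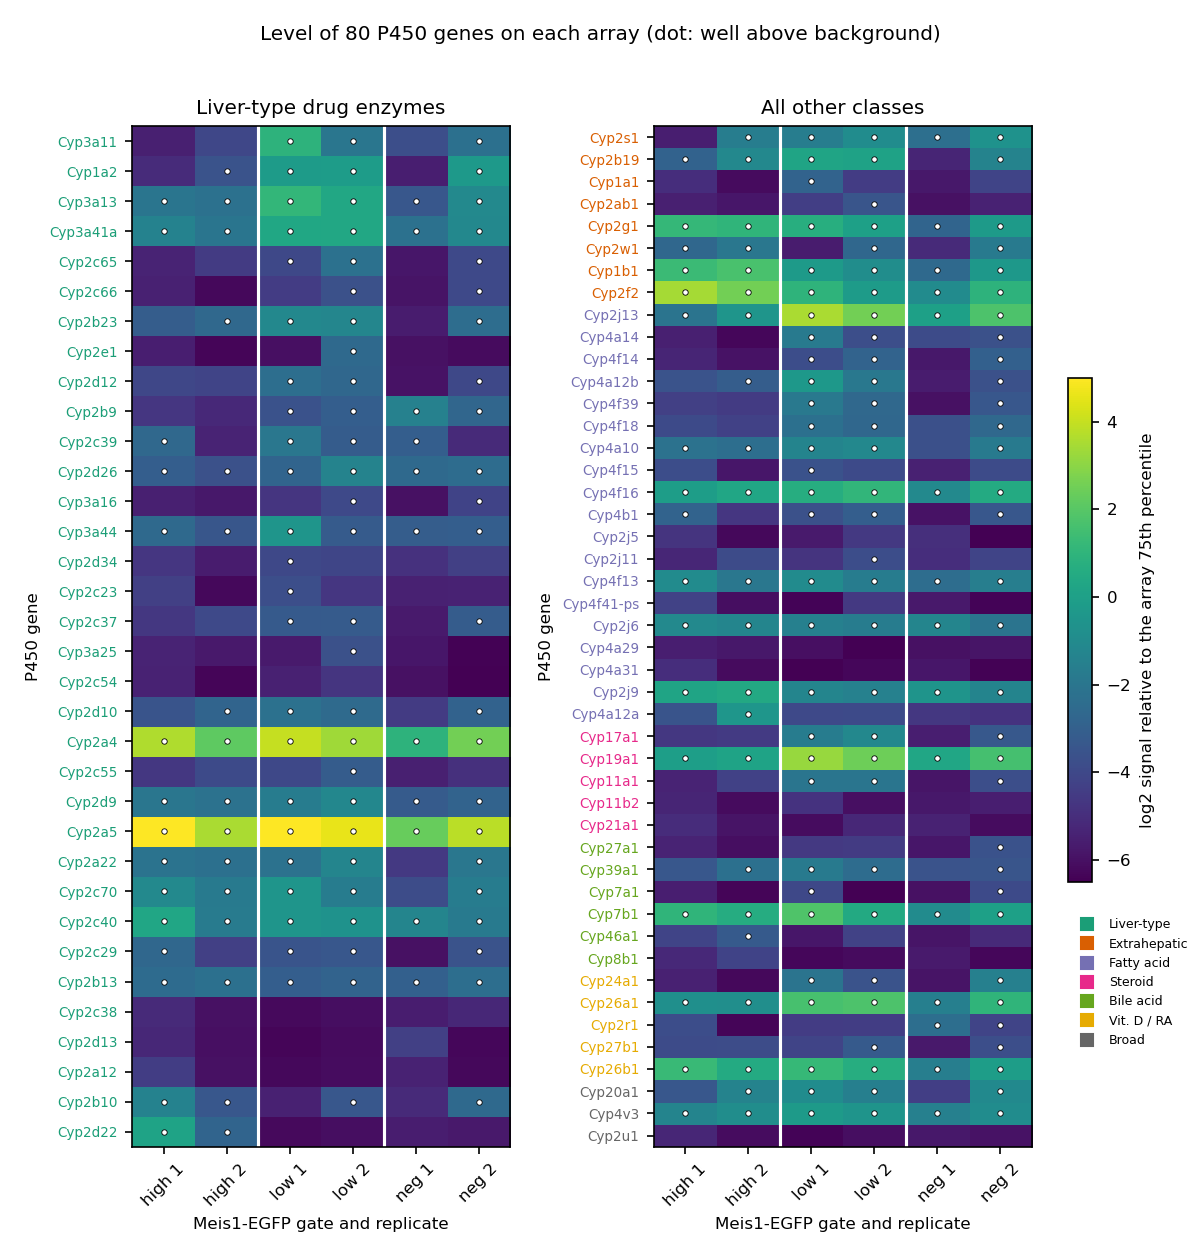
Level of each of the 80 P450 genes (rows, names coloured by class) on each array (columns), as log2 signal relative to the array's 75th percentile, with a dot where the gene was well above background. Genes are ordered within a class by the difference between Meis1-high and Meis1-low, and the Meis1-low columns hold 53 and 58 dots, against 32 and 38 in Meis1-high and 26 and 55 in Meis1-negative.

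Most P450 levels were lower in Meis1-high than in Meis1-low. The median difference over all 80 genes was -0.76, against 0.19 over all 28032 genes and -0.15 over the 18191 genes tested, and it was -0.59 on slide 1, which held replicate 1 of each gate, and -1.07 on slide 2. On both slides 45 of the 80 (56.2%) were lower and 17 (21.2%) higher, against 29.1% and 41.9% of all genes. The 2 arrays of each gate did not overlap, with Meis1-high lower, for 33 of the 80 (41.2%), against 21.8% of all genes, and with Meis1-high higher for 16 (20.0%), against 32.2%. Such counts and shares, here and below, include genes under background, whose order cannot be read. Of all 28032 genes, 9841 were detected on both arrays of no gate. Among the 16, Cyp2a12, Cyp2c38, Cyp2d13, Cyp4a29, Cyp4a31 and Cyp8b1 were well above background on no array of either gate. Among the 33 this held for Cyp27a1. No P450 gene passed the test. Of the 52 members tested, 0 had a limma adjusted p under 0.05, against 0.0% of the 18191 genes tested, and the smallest adjusted p of a member was 0.250. At an unadjusted p under 0.05, 14 members were lower (background 8.25%) and 4 were higher (4.65%). The members tested passed the filter through the gate in which they were bright. These counts, and all counts of members under a p threshold below, are therefore descriptions. The median over the 80 moved to -0.30 with normexp background correction, against -0.17 over all genes, and to -0.13 with signals raised to the lowest well above background, against 0.45 over all genes; dim members have no order there.

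Liver-type drug enzymes had a median difference of -0.99, with 22 of 34 lower and 6 higher on both slides. Cyp3a11 was at -5.50 and -4.05 in the Meis1-high pools, 0.91 and -1.99 in the Meis1-low pools, and -3.72 and -2.25 in the Meis1-negative pools. It was well above background on both Meis1-low arrays and on neither Meis1-high array, and the difference was -4.24 ± 1.09 (SE, n = 2 per gate, limma adjusted p = 0.255). Because the signal in Meis1-high gives only a bound, the mean of Cyp3a11 was at least 8.47-fold higher in Meis1-low. Such bounds set the mean of the brighter gate against the lowest signal well above background on the dimmer arrays. Where the probe's own signal is higher, that is used instead. All bounds given here and below hold for the measured means and leave out the spread between the pools of the brighter gate. Cyp1a2 was at -5.09 and -3.55 in the Meis1-high pools, -0.18 and -0.13 in the Meis1-low pools, and -5.55 and -0.28 in the Meis1-negative pools. Both Meis1-low arrays and Meis1-negative replicate 2 were high, the other 3 arrays were low, and the difference was -4.17 ± 1.54 (SE, n = 2 per gate, limma adjusted p = 0.332). Cyp3a13, an enzyme of liver and intestine, stood at -2.04 and -2.23 in the Meis1-high pools, 1.12 and 0.39 in the Meis1-low pools, and -3.38 and -1.09 in the Meis1-negative pools. It was well above background on all 6 arrays and differed by -2.89 ± 0.85 (SE, n = 2 per gate, limma adjusted p = 0.272), with no overlap between Meis1-high and Meis1-low.

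In other abundant liver enzymes the Meis1-high and Meis1-low arrays overlapped, and for Cyp2e1, below background on most arrays, no order can be read. Cyp2e1, the ethanol-oxidising enzyme, was at -5.54 and -6.36 in the Meis1-high pools, -6.04 and -2.59 in the Meis1-low pools, and -6.00 and -6.15 in the Meis1-negative pools, and only Meis1-low replicate 2 was well above background. Cyp2c29, a major arachidonic acid and drug epoxygenase of mouse liver, was at -2.66 and -4.31 in the Meis1-high pools, -3.51 and -3.37 in the Meis1-low pools, and -5.99 and -3.58 in the Meis1-negative pools, with Meis1-high arrays on either side of the Meis1-low arrays. The coumarin hydroxylase Cyp2a5 and its near copy Cyp2a4, named after their values were seen, were well above background on every array. Cyp2a5 was at 5.03 and 3.54 in the Meis1-high pools, 5.19 and 4.62 in the Meis1-low pools, and 2.31 and 3.81 in the Meis1-negative pools, and its difference between Meis1-high and Meis1-low, -0.62 ± 0.81 (SE, n = 2 per gate, limma adjusted p = 0.785), was within the spread of the replicates. Near copies can hybridise to each other's probes, so the 2 genes are not independent readings.

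Steroid hormone enzymes gave the lowest class median, -2.78 over 5 genes, of which 4 had the lower level in Meis1-high on each slide. The value depends on the processing: it was -0.56 with normexp, -1.59 with the floor and -0.86 with the mean of each gene's probes. Cyp17a1 was at -4.61 and -4.55 in the Meis1-high pools, -1.69 and -1.13 in the Meis1-low pools, and -5.52 and -3.32 in the Meis1-negative pools. Neither Meis1-high array was well above background and both Meis1-low arrays were, which gives at least 4.64-fold higher in Meis1-low, with a measured difference of -3.17 ± 0.83 (SE, n = 2 per gate, limma adjusted p = 0.255). Cyp11a1 was at -5.38 and -4.26 in the Meis1-high pools, -2.04 and -2.03 in the Meis1-low pools, and -5.84 and -3.76 in the Meis1-negative pools, with its brightest probe also well above background on both Meis1-low arrays and neither Meis1-high array, and a difference of -2.78 ± 0.84 (SE, n = 2 per gate, limma adjusted p = 0.281). Cyp19a1 encodes aromatase, which turns androgens into oestrogens. It was at -0.07 and 0.16 in the Meis1-high pools, 3.22 and 2.46 in the Meis1-low pools, and 0.29 and 1.63 in the Meis1-negative pools, detected on every array, with a difference of -2.79 ± 0.70 (SE, n = 2 per gate, limma adjusted p = 0.255) and no overlap between Meis1-high and Meis1-low. Cyp21a1 and Cyp11b2, which complete corticosteroid synthesis in the adrenal, were well above background on no array.

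The broadly expressed members were 3 genes with a median difference of -0.70. Cyp4v3, a fatty acid hydroxylase found in most tissues, was at -1.29 and -0.88 in the Meis1-high pools, -0.23 and -0.54 in the Meis1-low pools, and -1.49 and -0.91 in the Meis1-negative pools. The Meis1-high arrays lay below both Meis1-low arrays by -0.70 ± 0.61 (SE, n = 2 per gate, limma adjusted p = 0.679). Cyp20a1, an enzyme without an established substrate, was at -3.39 and -1.34 in the Meis1-high pools, -0.89 and -1.55 in the Meis1-low pools, and -4.35 and -1.06 in the Meis1-negative pools. Its first replicates in Meis1-high and Meis1-negative, the arrays with the fewest spots well above background, were below background, while the other 4 arrays were within a narrow range. The liver-type median (-0.99) and the broadly expressed median (-0.70) were close beside the spread of the 3 broad genes, which ran from -1.15 to 0.52. The upper end was Cyp2u1, which was well above background on no array, so its direction cannot be read. Over the members that passed the filter, the medians were -1.08 for the liver-type genes and -0.92 for the 2 broadly expressed genes.

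Among the fatty acid and eicosanoid enzymes the median was -0.39, with 11 of 19 lower and 5 higher on both slides. Cyp2j13, of a subfamily of arachidonic acid epoxygenases, had the largest negative difference of the family. It was at -2.08 and -0.49 in the Meis1-high pools, 3.52 and 2.55 in the Meis1-low pools, and 0.02 and 1.78 in the Meis1-negative pools, with Meis1-low above and Meis1-high below all other arrays, and differed by -4.32 ± 0.88 (SE, n = 2 per gate, limma adjusted p = 0.250). Cyp4a14, a fatty acid omega-hydroxylase of liver and kidney, was at -5.48 and -6.31 in the Meis1-high pools, -1.82 and -3.75 in the Meis1-low pools, and -3.87 and -3.66 in the Meis1-negative pools. It was detected on neither Meis1-high array, which gives at least 1.79-fold higher in Meis1-low. Cyp4f18 and Cyp4f39, named after their values were seen, had bounds of at least 2.23-fold and 2.61-fold in the same direction. Cyp4f18 is known from neutrophils and other myeloid cells, where it oxidises leukotriene B4. Cyp2j9, a brain-enriched epoxygenase, ran the other way at 0.22 and 0.44 in the Meis1-high pools, -1.26 and -1.47 in the Meis1-low pools, and -0.55 and -1.32 in the Meis1-negative pools, a difference of 1.69 ± 0.61 (SE, n = 2 per gate, limma adjusted p = 0.326).

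Vitamin D and retinoic acid enzymes included both patterns. Cyp26a1, which degrades retinoic acid, was at -0.78 and -0.80 in the Meis1-high pools, 1.67 and 1.77 in the Meis1-low pools, and -1.55 and 1.01 in the Meis1-negative pools. The Meis1-low arrays were above both Meis1-high arrays, with a difference of -2.51 ± 0.88 (SE, n = 2 per gate, limma adjusted p = 0.315). Its relative Cyp26b1 was at 1.30 and 0.53 in the Meis1-high pools, 1.21 and 0.64 in the Meis1-low pools, and -1.59 and -0.08 in the Meis1-negative pools, and the Meis1-high and Meis1-low arrays overlapped. Cyp24a1, which inactivates vitamin D, was at -5.42 and -6.26 in the Meis1-high pools, -2.06 and -3.55 in the Meis1-low pools, and -5.89 and -1.49 in the Meis1-negative pools. Both Meis1-low arrays and Meis1-negative replicate 2 were well above background and the other 3 were not, so the order of Meis1-low and Meis1-negative depends on the replicate. Cyp27b1, which makes the active vitamin D hormone, was well above background on the second replicates of Meis1-low and Meis1-negative through its brightest probe, and on the first replicates of Meis1-high and Meis1-low through its other probe. Cyp2r1, the liver 25-hydroxylase, was well above background on the 2 Meis1-negative arrays alone, at -2.34 and -4.13.

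Bile acid and cholesterol enzymes were mostly dim. Cyp7b1, an oxysterol hydroxylase, was the one member detected on all 6 arrays, at 1.01 and 0.60 in the Meis1-high pools, 1.85 and 0.48 in the Meis1-low pools, and -0.96 and 0.04 in the Meis1-negative pools, and Meis1-high and Meis1-low overlapped. Cyp39a1, another oxysterol hydroxylase, was at -3.36 and -2.25 in the Meis1-high pools, -1.77 and -2.42 in the Meis1-low pools, and -3.58 and -3.47 in the Meis1-negative pools. Cyp7a1, the rate-limiting enzyme of bile acid synthesis, was well above background on Meis1-low replicate 1 and Meis1-negative replicate 2 and on no other array. Cyp27a1 was so on Meis1-negative replicate 2 alone, Cyp46a1, the brain's cholesterol hydroxylase, on Meis1-high replicate 2 alone, and Cyp8b1 on none.

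Among the members tested, extrahepatic xenobiotic enzymes held 3 of the 5 largest positive differences with the same sign on both slides. The class median over all 8 genes, tested or not, was -0.49, which became 0.50 with the floor. Over the 6 that passed the filter the median was 1.29. Cyp2f2, the naphthalene-activating enzyme of airway club cells, was at 3.47 and 2.55 in the Meis1-high pools, 0.98 and -0.20 in the Meis1-low pools, and -0.95 and 0.93 in the Meis1-negative pools. Both Meis1-high arrays were above all others, and the difference was 2.62 ± 0.85 (SE, n = 2 per gate, limma adjusted p = 0.294). Cyp1b1, an aryl hydrocarbon receptor target also present in mesenchymal cells, was at 1.33 and 1.69 in the Meis1-high pools, -0.23 and -0.86 in the Meis1-low pools, and -2.59 and -0.39 in the Meis1-negative pools, again with Meis1-high above all others and a difference of 2.06 ± 0.83 (SE, n = 2 per gate, limma adjusted p = 0.370). Beside it, 5 of the 7 fibroblast and pericyte markers were higher in Meis1-high, and 6 or 7 of the 7 were well above background on every array, with summed levels of 4.33 and 2.92 in the Meis1-high pools, 3.71 and 2.76 in the Meis1-low pools, and 2.94 and 2.61 in the Meis1-negative pools; their part in the Cyp1b1 values was not tested. Cyp2g1, known from olfactory mucosa, was at 1.17 and 1.04 in the Meis1-high pools, 0.72 and 0.03 in the Meis1-low pools, and -2.78 and -0.21 in the Meis1-negative pools, with a small gap between Meis1-high and Meis1-low. Cyp2w1, a fetal gut and tumour enzyme, and the liver-type Cyp2b10 were 1.84 and 2.02 higher in Meis1-high, differences that were 2.95 and 4.01 on slide 1 and 0.72 and 0.021 on slide 2. Cyp2s1 and the keratinocyte epoxygenase Cyp2b19 ran toward Meis1-low, at -2.30 and -2.19. Cyp2s1 was at -5.52 and -1.63 in the Meis1-high pools and -1.64 and -0.93 in the Meis1-low pools, so these gates overlapped. Its difference came mostly from Meis1-high replicate 1, where it was below background.

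**Figure D3:**
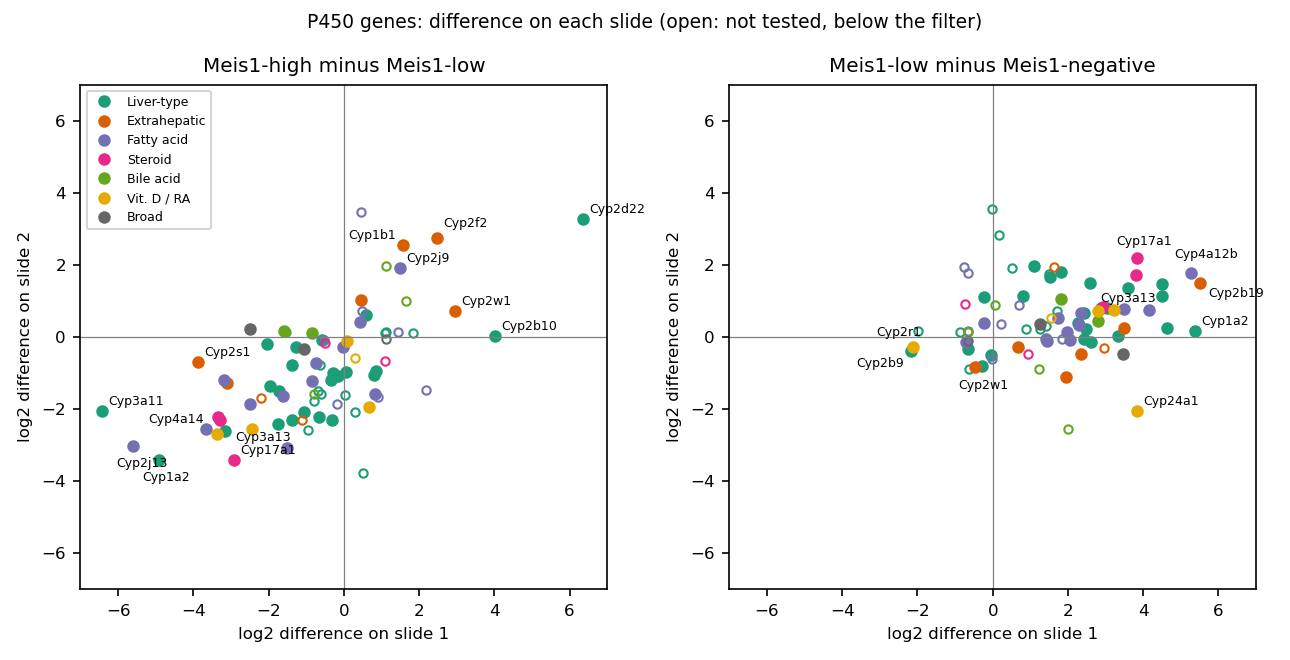
Log2 difference of each P450 gene on slide 1 (x axis) against slide 2 (y axis), coloured by class, for Meis1-high minus Meis1-low (left) and Meis1-low minus Meis1-negative (right); filled points were tested. On the left 45 of 80 genes lie below 0 on both slides and 17 above; on the right 45 lie above 0 on both slides and 10 below.

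The largest positive difference of the family was that of the liver-type gene Cyp2d22, at 0.16 and -2.81 in the Meis1-high pools, -6.21 and -6.07 in the Meis1-low pools, and -5.56 and -5.73 in the Meis1-negative pools. Its brightest probe was well above background on both Meis1-high arrays and on no other array, and none of its probes was so in Meis1-low, which gives at least 7.53-fold higher in Meis1-high than in Meis1-low, with a measured difference of 4.81 ± 0.97 (SE, n = 2 per gate, limma adjusted p = 0.250). The 2 Meis1-high pools themselves differed by 2.97 on the log2 scale.

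Marker lists of cell states and of other cells differed between Meis1-high and Meis1-low in both directions, and no marker passed the limma test. The 5 cortical epithelial genes (Psmb11, Prss16, Ly75, Ctsl and Cxcl12) were all higher in Meis1-high, with a median difference of 2.12 and summed levels of 6.85 and 7.31 in the Meis1-high pools, 5.64 and 4.83 in the Meis1-low pools, and 4.403 and 5.70 in the Meis1-negative pools. The 5 medullary maturation genes (Aire, Fezf2, Cd80, Cd86 and Cd40) summed to 3.46 and 3.48 in the Meis1-high pools, 4.98 and 5.26 in the Meis1-low pools, and 2.07 and 4.76 in the Meis1-negative pools, and 5 of 5 were lower in Meis1-high than in Meis1-low. Aire itself was at 1.19 and 2.69 in the Meis1-high pools, 3.87 and 4.65 in the Meis1-low pools, and 1.22 and 3.84 in the Meis1-negative pools. Of 8 secretory genes that define hepatocytes, 7 were lower in Meis1-high, with summed levels of -0.68 and 0.33 in the Meis1-high pools, 3.14 and 2.85 in the Meis1-low pools, and -0.16 and 2.15 in the Meis1-negative pools, and Ttr was well above background on no array. Of 10 dendritic cell and macrophage markers, 10 were lower in Meis1-high; they summed to 3.56 and 3.47 in the Meis1-high pools, 5.40 and 5.36 in the Meis1-low pools, and 2.64 and 5.09 in the Meis1-negative pools, and Mrc1, C1qa, Itgax and Fcgr1 were below background on both Meis1-high arrays. All 5 erythroid markers measured were lower too. The part of these cells or states in the P450 values was not tested, and in such pools fewer cells of a type cannot be told apart from less RNA per cell.

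Against Meis1-negative, the values of Meis1-high lay in both directions. This comparison shares the Meis1-high arrays with the first. The median over the 80 genes was 0.29, against 0.17 over all genes, and the slides disagreed, at 0.77 on slide 1 and -0.28 on slide 2. On both slides 28 of 80 were higher (35.0%, against 39.3% of all genes) and 9 lower (11.2%, against 22.2%). The arrays did not overlap for 17 with Meis1-high higher (21.2%, against 18.1% of all genes) and for 7 with Meis1-high lower (8.75%, against 14.2%). Of the 52 members tested, 0 had a limma adjusted p under 0.05, against 0.0% of all genes tested. At an unadjusted p under 0.05, 5 were higher (background 5.67%) and 3 lower (4.82%). The higher members were Cyp2d22 with 4.32 ± 0.97 (SE, n = 2 per gate, limma adjusted p = 0.264), Cyp2f2 with 3.02 ± 0.85 (SE, n = 2 per gate, limma adjusted p = 0.339), Cyp1b1 with 2.996 ± 0.83 (SE, n = 2 per gate, limma adjusted p = 0.337), Cyp2g1 and Cyp26b1. Cyp26b1, a second retinoic acid hydroxylase, differed by 1.75 ± 0.74 (SE, n = 2 per gate, limma adjusted p = 0.468) here. Cyp2b9, a liver enzyme of female mice, was at -4.68 and -5.17 in the Meis1-high pools, -3.61 and -3.08 in the Meis1-low pools, and -1.43 and -2.70 in the Meis1-negative pools. Through its brightest probe it was detected on both Meis1-negative and neither Meis1-high array, at least 2.94-fold higher in Meis1-negative, with a measured difference of -2.86 ± 0.69 (SE, n = 2 per gate, limma adjusted p = 0.295). Its other probe was well above background on the Meis1-low arrays alone, and stood at -5.55 and -4.77 in the Meis1-negative pools. The Meis1-negative excess of Cyp2b9 thus rests on 1 of 2 probes.

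Most members were higher in Meis1-low than in Meis1-negative, a comparison that shares its arrays with the other 2. Cell size and reporter level differ together between these gates. The median over the 80 was 1.09, against -0.12 over all genes, and the slides gave 1.67 and 0.36. On both slides 45 (56.2%) were higher, against 26.8% of all genes, and 10 (12.5%) lower, against 26.8%. The arrays did not overlap, with Meis1-low higher, for 35 (43.8%), against 17.3% of all genes, and with Meis1-low lower for 6 (7.5%), against 15.7%. With limma 0 of the 52 tested members had an adjusted p under 0.05, against 0.0% of all genes tested. At an unadjusted p under 0.05, 13 were higher (background 4.99%) and 0 lower (3.06%). Several of the 13, such as Cyp17a1 and Cyp11a1, passed the filter through Meis1-low alone, so these counts are descriptions. Cyp4a12b, a fatty acid hydroxylase of kidney, was at -3.55 and -3.10 in the Meis1-high pools, -0.36 and -1.90 in the Meis1-low pools, and -5.64 and -3.67 in the Meis1-negative pools, a difference of 3.53 ± 0.88 (SE, n = 2 per gate, limma adjusted p = 0.468). Cyp17a1 differed by 3.01 ± 0.83 (SE, n = 2 per gate, limma adjusted p = 0.545), Cyp11a1 by 2.76 ± 0.84 (SE, n = 2 per gate, limma adjusted p = 0.609) and Cyp3a13 by 2.99 ± 0.85 (SE, n = 2 per gate, limma adjusted p = 0.578). The keratinocyte enzyme Cyp2b19 was at -2.90 and -1.14 in the Meis1-high pools, 0.21 and 0.13 in the Meis1-low pools, and -5.30 and -1.37 in the Meis1-negative pools, and its Meis1-low arrays were above all others.

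The Meis1-negative replicates differed more from each other than those of the other gates. Of the 80 members, 23 (28.8%) differed by over 4-fold between the 2 Meis1-negative pools, against 19.3% of all genes. In Meis1-low 7 did so (8.75%, against 9.93% of all genes) and in Meis1-high 8 (10.0%, against 9.69%). The median of replicate 1 minus replicate 2 was -1.40 in that gate. Without Meis1-negative replicate 2, and with the remaining array taken to vary like the other gates, 4 of the 52 members tested had a limma adjusted p under 0.05 against Meis1-high (Cyp1b1, Cyp2b9, Cyp2f2 and Cyp2g1), where 5.19% of all genes tested did. Against Meis1-low there were 11 of 52, where 6.94% of all genes tested passed (Cyp11a1, Cyp17a1, Cyp1a2, Cyp26a1, Cyp2b19, Cyp2b23, Cyp2d12, Cyp2g1, Cyp3a13, Cyp4a12b and Cyp4f39). Both counts of members are descriptions, since members passed the filter through the gate in which they were bright. Meis1-negative replicate 1 is also the array with the thymocyte marker sum of 10.15 and the lowest epithelial marker sum, 5.67, against 7.52 to 8.87 on the other 5 arrays. The part of these in the P450 values was not tested.

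Many P450 genes lie in tandem arrays of copies, and neighbours are described by their probe positions on mm9. In the Cyp3a cluster on chr5:146197274-146789234, all 5 genes were lower in Meis1-high than in Meis1-low, with differences from -4.24 to -0.89 and a median of -1.29. In the Cyp2c cluster on chr19:39116674-40228028, 9 of 10 genes were lower, with a median of -0.75, and 2, 6 and 1 were detected on both arrays of the high, low and negative gates. Cyp1a2, Cyp1a1 and Cyp11a1, close together on chromosome 9, were all lower, from -4.17 to -1.94. The other clusters also held genes in both directions, among them the Cyp2a, Cyp2b, Cyp2f, Cyp2g and Cyp2s genes on chr7:26587504-27918629, where 7 of 12 were lower (-2.30 to 2.62), and the Cyp2j genes on chr4:95711984-96296075, where 3 of 5 were lower (-4.32 to 1.69).

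Where a gene had several probes, they did not always read the same difference. Of the 27 genes with several probes, 11 had probes with opposite signs for Meis1-high minus Meis1-low, and the differences of 7 ranged over more than 2 log2 units. In Cyp19a1, Cyp2b19, Cyp2c37, Cyp2s1 and Cyp7a1 the opposite sign came only from a probe well above background on no array. Such a probe has no readable direction, and Cyp19a1, Cyp2b19 and Cyp2s1 were also among the 7. The 2 probes of Cyp1a2 gave -4.17 and -3.69. For Cyp11a1 the printed junction probes both stood higher in Meis1-low, the second at -5.12 and -5.99 in the Meis1-high pools, -2.88 and -3.41 in the Meis1-low pools, and -5.58 and -4.07 in the Meis1-negative pools. Its probe 1, at chr9:57869600-57869659, instead stood at -2.67 and -4.51 in the Meis1-high pools, -5.96 and -6.41 in the Meis1-low pools, and -2.79 and -6.54 in the Meis1-negative pools, well above background on the first replicates of Meis1-high and Meis1-negative alone. Cyp19a1 was detected through a probe at chr9:54013778-54013837, while a probe across a junction at chr9:54020585-54021182 was well above background on no array. For Cyp2j13 the values above are those of probe 1, at chr4:95711984-95712043. Its probe 3, at chr4:95738259-95738318, stood at -3.47 and -6.26 in the Meis1-high pools, -2.39 and -1.81 in the Meis1-low pools, and -5.88 and -2.64 in the Meis1-negative pools, again with both Meis1-high arrays below both Meis1-low arrays. The printed probe with the heme signature stood at -2.54 and -2.37 in the Meis1-high pools, -2.49 and -1.53 in the Meis1-low pools, and -2.30 and -2.50 in the Meis1-negative pools, and its gates overlapped. Of the 3 probes of Cyp2d22, the second was well above background on the second replicates of Meis1-high and Meis1-negative and the third on Meis1-negative replicate 2 alone, so the Meis1-high difference rests on 1 probe, at chr15:82201687-82201746. Cyp1b1 likewise rests on 1 of 2 probes, the other being below background throughout.

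**Figure D4:**
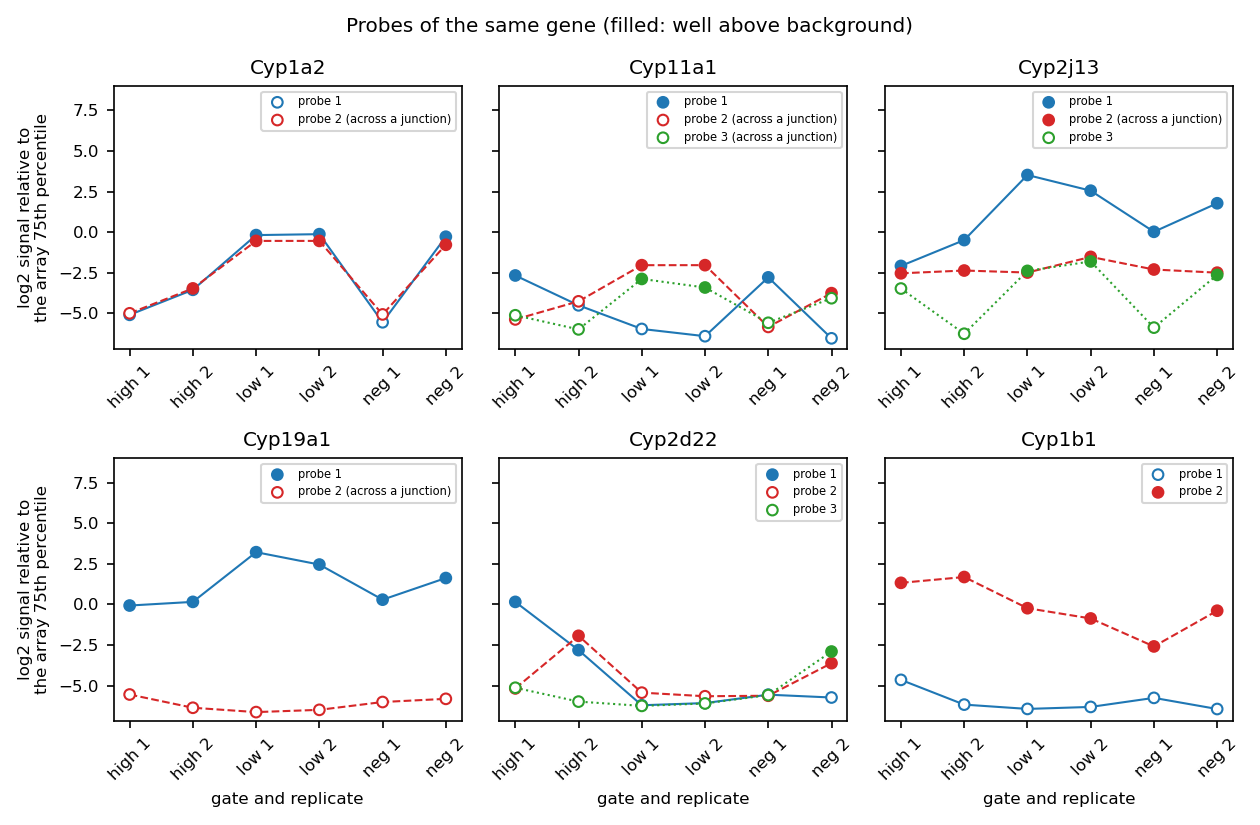
Level of each probe (log2 signal relative to the array's 75th percentile, y axis) on the 6 arrays (x axis) for 6 genes with several probes, numbered by position, with filled points well above background and lines joining the points of a probe. The 2 Cyp1a2 probes run together, whereas Cyp19a1, Cyp2d22 and Cyp1b1 each have a probe that does not follow the brightest one, and for Cyp2j13 the junction probe stays between -2.54 and -1.53.

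All 9 electron partners of P450s were well above background on all 6 arrays. For Meis1-high minus Meis1-low 6 of 9 were lower, and 0 of 9 passed the limma test, as did 0.0% of all genes tested. The median difference of the 9 was -0.50, against -0.15 over the genes tested and 0.19 over all genes. P450 oxidoreductase, Por, was at 0.97 and 0.25 in the Meis1-high pools, 0.57 and 0.09 in the Meis1-low pools, and 0.49 and -0.31 in the Meis1-negative pools, and its gates overlapped. Fdxr, which feeds electrons to the mitochondrial steroid and vitamin D enzymes, was at -2.38 and -1.06 in the Meis1-high pools, 0.03 and 0.08 in the Meis1-low pools, and 0.39 and -0.67 in the Meis1-negative pools, a difference of -1.77 ± 0.72 (SE, n = 2 per gate, limma adjusted p = 0.372). Fdx1, the ferredoxin between Fdxr and those enzymes, was at 2.16 and 2.81 in the Meis1-high pools, 3.06 and 2.90 in the Meis1-low pools, and 1.35 and 2.86 in the Meis1-negative pools. Cyp51, a P450 of cholesterol synthesis in all cells whose name falls outside the naming rule, was at 0.24 and 0.16 in the Meis1-high pools, 1.17 and 1.44 in the Meis1-low pools, and 0.68 and 1.19 in the Meis1-negative pools, a difference of -1.11 ± 0.59 (SE, n = 2 per gate, limma adjusted p = 0.488).

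Of the 16 regulators listed, 12 were tested and 0 passed in any of the 3 comparisons. The drug receptors Nr1i2 and Nr1i3, which induce Cyp3a and Cyp2b genes in liver, were well above background on no array. Hnf4a, a liver and gut factor that drives many P450 genes, was at 1.07 and -0.11 in the Meis1-high pools, -0.26 and -0.12 in the Meis1-low pools, and 0.15 and 0.14 in the Meis1-negative pools, and Meis1-negative overlapped with Meis1-high. The aryl hydrocarbon receptor Ahr, which induces Cyp1a1, Cyp1a2 and Cyp1b1, was at -5.22 and -4.63 in the Meis1-high pools, -5.74 and -5.86 in the Meis1-low pools, and 0.26 and -3.40 in the Meis1-negative pools, above background in Meis1-negative alone, while its repressor and target Ahrr was at -4.49 and -5.90 in the Meis1-high pools, -1.51 and -2.78 in the Meis1-low pools, and -5.52 and -1.96 in the Meis1-negative pools. Of 5 steroidogenic partners 0 passed. The cholesterol carrier Star was at -1.48 and -1.04 in the Meis1-high pools, -0.53 and -0.26 in the Meis1-low pools, and -1.31 and -0.42 in the Meis1-negative pools, and Hsd3b1, which acts between Cyp11a1 and Cyp17a1, was at -4.54 and -4.63 in the Meis1-high pools, -3.41 and -2.15 in the Meis1-low pools, and -4.09 and -2.88 in the Meis1-negative pools, well above background on the same 3 arrays as the brightest probes of those 2 genes.

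Promoter sequences, defined as the 250 bases before and 50 after the start of the gene, were found in RefSeq (GRCm38.p6) for 59 of the 80 genes. Liver-type promoters were poor in CG dinucleotides, with a median of 2 per 300 bases (range 0 to 4, n = 28), against 7 over all 27018 promoters. The 2 broadly expressed members with a sequence had 20 and 17. The letters TATAAA were present on either strand in 20 of 28 liver-type promoters (71.4%), in 1 of 13 fatty acid promoters and 1 of 7 extrahepatic ones, and in 14.2% of all promoters. Both readings describe the printed letters and do not mark a site. The 250 upstream bases of Cyp20a1 (chr1:60343050-60343299, plus strand), Cyp1a2 (chr9:57683656-57683905, minus strand) and Cyp3a11 (chr5:145879855-145880104, minus strand) are shown for contrast, with CG and TATAAA in capitals. Cyp20a1 has 15 CG and no TATAAA in these bases, Cyp1a2 has 3 and 1, and Cyp3a11 has 2 and 1.
Cyp20a1: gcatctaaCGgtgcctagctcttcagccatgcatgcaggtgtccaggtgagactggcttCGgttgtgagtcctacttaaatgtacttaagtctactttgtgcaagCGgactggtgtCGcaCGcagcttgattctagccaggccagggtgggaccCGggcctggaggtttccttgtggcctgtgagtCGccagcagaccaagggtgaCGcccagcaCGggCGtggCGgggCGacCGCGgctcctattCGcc
Cyp1a2: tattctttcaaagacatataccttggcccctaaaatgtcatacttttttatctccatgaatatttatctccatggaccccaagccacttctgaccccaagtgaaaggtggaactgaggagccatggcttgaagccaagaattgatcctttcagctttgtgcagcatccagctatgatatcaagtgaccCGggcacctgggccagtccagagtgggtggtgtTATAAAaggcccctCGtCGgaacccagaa
Cyp3a11: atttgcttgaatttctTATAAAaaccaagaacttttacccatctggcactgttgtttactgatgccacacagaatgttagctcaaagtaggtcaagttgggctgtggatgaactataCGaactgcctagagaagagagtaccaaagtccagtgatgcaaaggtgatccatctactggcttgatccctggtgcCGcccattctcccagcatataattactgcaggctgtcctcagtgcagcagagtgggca

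**Figure D5:**
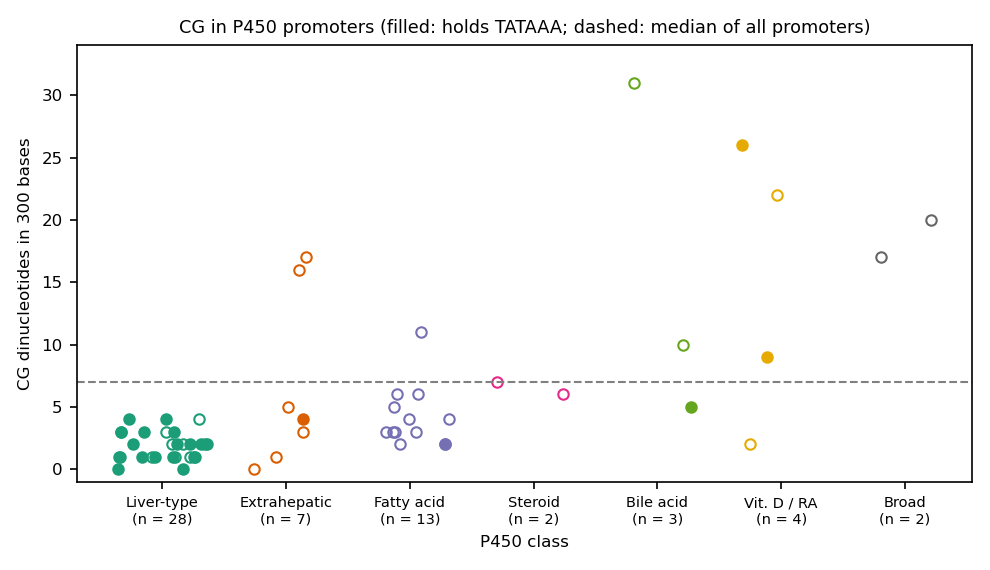
Number of CG dinucleotides in the 300 promoter bases of each P450 gene with a sequence (y axis), by class (x axis), filled where TATAAA is present; the dashed line is the median of all promoters, 7. All 28 liver-type points lie at 4 or below, and 20 of them are filled.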

How the data were processed

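RNA of 6 pools was amplified, labelled with Cy3 and hybridised to one-colour arrays, per the labels. Per the file headers, the scanner software was Agilent Feature Extraction 9.5.3.1, probe positions are on mm9, and the deposited intensity is background-subtracted and detrended but not scaled between arrays. The deposited well-above-background, saturation and outlier marks are flags, not measurements. The authors' deposited value table is on a log2 scale, centred so that 100% of probes have a median of 0; it correlated with the scaled scanner signal at 0.99984 or above and served as an alternative. Its centring and direction were found by comparison, and higher means brighter.

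Control and outlier spots were removed, spots averaged per probe, the 75th percentile subtracted on the log2 scale, and the brightest probe taken per gene. The test took genes well above background in both pools of 1 gate or more (18191 genes, 52 of the 80 members). limma 3.58.1 in R 4.3.3 fitted 1 mean per gate over all 6 arrays (3 residual and 4.33 prior degrees of freedom), with Benjamini-Hochberg adjustment over all genes and a threshold of 0.05. The test was tried on simulated data. Figures were drawn with matplotlib 3.10.9. Saturated spots were kept, and every column of the files is mapped to a sample. Precision is limited by having 2 arrays in a gate.

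Members, classes and lists were chosen with earlier results of these data known. Named genes were, among members that passed the filter, the 8 largest differences each way per comparison with one sign on both slides, plus fixed members; others are marked as named after their values were seen, or are given in counts. Per the file headers, the arrays of each replicate number share 1 slide and scan, and the labels do not say whether their pools share mice. Replicate differences correlated at 0.209, 0.128 and 0.125 between the 3 pairs of gates. The main fit held no term for the replicate number. Exon and UTR positions on mm9 were not analysed here. A listed regulator and a probe sequence are not reported here.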

Additional observations from a re-analysis of the deposited data

How the results depend on the processing

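With the replicate number as a block, 0 genes and 0 P450 members had a limma adjusted p under 0.05 in each of the 3 comparisons (smallest adjusted p 0.248, 0.179 and 0.229 for Meis1-high minus Meis1-low, Meis1-high minus Meis1-negative and Meis1-low minus Meis1-negative), so the block changed no call. Normexp background correction gave 317, 410 and 168 of the 18191 genes tested and called 3 of 52 members in the first comparison (Cyp19a1, Cyp2f2 and Cyp2j13) and 2 in the second (Cyp1b1 and Cyp2f2). Median scaling gave 74 genes in the second comparison and 13 in the third, and the floor gave 21 in the second. Leaving out each array in turn gave 0 to 0, 0 to 944 and 0 to 1263 genes and 0 to 0, 0 to 4 and 0 to 11 members; the highest counts came without Meis1-negative replicate 2, where the lone array is assumed to vary like the other gates. Over the same omissions the median of the 80 members ranged from -1.11 to -0.60, from -0.20 to 0.64 and from 0.47 to 1.66, and that of the liver-type genes from -1.39 to -0.66, from -0.01 to 0.61 and from 0.75 to 1.74. The liver-type median of Meis1-low minus Meis1-negative was 0.49 with the floor, and 6 liver-type genes rather than 11 were above 2 times the lowest signal well above background on Meis1-negative replicate 1. Normexp moved the median of all genes for Meis1-high minus Meis1-low from 0.19 to -0.17, so that the P450 median of -0.30 stands 0.13 below it there; median scaling moved that for Meis1-high minus Meis1-negative from 0.17 to 0.07.

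Single genes turned direction as follows. For Meis1-high minus Meis1-low, Cyp2b13 was -0.81 and Cyp39a1 0.21 with the mean of probes, and Cyp2r1 was 0.62 with the floor and -1.91 to 0.65 over the arrays left out in turn. For Meis1-high minus Meis1-negative, Cyp4a14 was 0.053 with the floor, and Cyp2r1 was 0.021 and Cyp4f18 0.093 with normexp. With arrays left out in turn in that comparison, Cyp2b19 ranged from -0.65 to 3.28, Cyp20a1 -1.30 to 1.99, Cyp3a13 -1.04 to 1.25, Cyp4b1 -0.37 to 2.19, Cyp11a1 -1.06 to 1.02, Cyp17a1 -1.27 to 0.93, Cyp24a1 -4.35 to 0.046, Cyp26a1 -1.80 to 0.76 and Cyp1a2 -4.04 to 1.23, where the ends came without one or the other Meis1-negative array. For Meis1-low minus Meis1-negative, Cyp2b9 was 0.53 and Cyp2b13 0.99 with the mean of probes, and Cyp2r1 was 0.20 with normexp. There the ranges were Cyp2w1 -2.30 to 1.01, Cyp2b10 -1.84 to 0.73, Cyp20a1 -0.16 to 3.13, Cyp24a1 -1.31 to 3.08, Cyp1b1 -0.16 to 2.04 and Cyp2f2 -0.54 to 1.35. The cause was not tested. The other alternatives were quantile normalization, no filter, a filter on 4 arrays, every probe, the authors' values, the names in the files and the 4 compared arrays alone. The lowest signal well above background limits what can be read from dim members.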

Other observations

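Tbxas1, the P450 that makes thromboxane in platelets and macrophages, was at -5.50 and -4.80 in the Meis1-high pools, -2.26 and -3.37 in the Meis1-low pools, and -4.17 and -3.36 in the Meis1-negative pools, well above background on both Meis1-low arrays and neither Meis1-high array. Ptgis, the prostacyclin synthase, was well above background on the first Meis1-low and the second Meis1-negative array. Cyp4a12a, chosen after its values were seen, was at -3.51 and -0.46 in the Meis1-high pools, -3.96 and -3.92 in the Meis1-low pools, and -4.65 and -4.80 in the Meis1-negative pools, and only Meis1-high replicate 2 was well above background, unlike its neighbour Cyp4a12b, which was detected on both Meis1-low arrays.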
